A study of Arabidopsis thaliana with 6 samples.

Results

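CRT1b (AT1G09210) and ATERDJ3B (AT3G62600) encode 2 proteins that fold newly made polypeptides in the lumen of the endoplasmic reticulum (ER). The genes were chosen with earlier results of these data known. Their probe sets were then taken by annotation alone, as those paired with exactly 1 gene, where that gene was either of these. This gave 1 probe set for each gene, 264260_at for CRT1b and 251182_at for ATERDJ3B, so 2 of the 13356 genes with a probe set of their own. Those genes had 13513 probe sets, of 22746 in all after 64 controls were set aside. The samples were whole fbp7-3 mutant seedlings in the Nossen (No-0) background and whole wild type No-0 seedlings, both grown in light and harvested at 5 days, with 3 samples a group and 1 Affymetrix ATH1 array a sample. The mutation lies in FBP7, which encodes an F-box protein, the class of proteins that select substrates for SCF ubiquitin ligases. The labels name no applied stress, and do not give the nature of the fbp7-3 lesion or say whether plants of a group were grown separately. The p-values therefore measure the spread between these samples, which may be technical.

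Calreticulin is a soluble, calcium-binding lectin chaperone that holds monoglucosylated glycoproteins in the ER until they fold, in a cycle shared with the membrane protein calnexin. ERdj3-type J-domain proteins bind unfolded clients and stimulate the ATPase of the ER Hsp70, BiP. When misfolded proteins accumulate, the unfolded protein response raises many such chaperone transcripts. In Arabidopsis the membrane-bound factor bZIP28, which is cut by the proteases S1P and S2P, and the factor bZIP60, whose RNA is spliced by IRE1, carry this signal to the nucleus. In Arabidopsis a calreticulin and ERdj3B also take part in the folding of cell surface immune receptors. The comparison gave a reading of basal ER chaperone transcripts with and without the mutation.

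All values are MAS5 signals on a linear scale, scaled so that the trimmed mean was 500.0 on each array, and array medians lay between 189.7 and 201.65. The annotation table used here paired no probe set with FBP7, so the mutated gene did not serve as a check of the labels. LHCB4.1, a light-harvesting gene of green tissue chosen after its values were seen, had signals from 18999.8 to 26345.4 over all arrays. RNA of green tissue was thus present. The root and root hair list, of 7 loci, had 5 probe sets with signals from 46.8 to 539.1, some of them below the array medians. These signals were not tested against background, so the presence of root RNA was not tested. An index of RNA quality, the mean log2 ratio of 3′ to 5′ signal over 6 control pairs, was 1.069, 1.104 and 1.334 on mutant arrays 1 to 3, and 0.998, 0.878 and 0.989 on wild type arrays 1 to 3. Every mutant array thus lay above every wild type array in this index. In samples of whole seedlings, fewer cells of a type and less RNA per cell cannot be told apart.

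CRT1b, the calreticulin gene, was lower in every mutant sample than in every wild type sample. The difference was small and did not pass over the whole table. CRT1b was read above background, at a percentile between 94.7 and 95.8 of each array's signals. Its signal was 2829.5, 2653.8 and 2679.2 in mutant samples 1 to 3, against 3221.7, 3113.6 and 3246.1 in wild type samples 1 to 3. The highest mutant sample was 284 below the lowest wild type sample, so the groups did not overlap. The mean was 2721 ± 95 in mutant seedlings and 3194 ± 70.5 in wild type seedlings (SD, n = 3 each), which put the mutant at 85.2% of the wild type.

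The log2 change of CRT1b, mutant minus wild type on the log2(signal + 16) scale, was −0.23 ± 0.09 (SE; 95% interval −0.42 to −0.04). As a ratio this is 0.852, with an interval from 0.75 to 0.969. The change had an unadjusted p of 0.0185 and did not pass over the 17059 probe sets tested (limma, Benjamini-Hochberg adjusted p = 0.294). CRT1b was chosen with earlier results of these data known, and its interval and unadjusted p take no account of that choice. The two-sided exact permutation test of the linear signals gave p = 0.1, which is the smallest that 3 against 3 allows. Of all probe sets tested, 180, or 1.06%, passed at an adjusted p under 0.05, and neither CRT1b nor ATERDJ3B was among them. Non-overlapping groups were found in 17.0% of probe sets tested, and in 8.56% with the mutant lower, the direction of CRT1b. A smaller p than that of CRT1b was reached by 1070 probe sets, or 6.27%, and a larger absolute change by 29.3%.

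The small size of the change stood beside a small spread. The coefficient of variation of the CRT1b signal was 3.49% among mutant samples and 2.21% among wild type samples. Its own residual SD was 0.0417 on the log2 scale, below the SD of 0.106 that limma's test used after combining it with probe sets of like signal. With each probe set's own variance in place of the combined one, an alternative chosen after the data were seen, the interval narrowed to −0.32 to −0.14, with an unadjusted p of 0.00249 and an adjusted p of 0.331 in the limma fit. In the fit as first given, the interval of the ratio holds no value above 0.969. Over 18 alternatives the log2 interval lay below 0 in 14, and it was −0.53 to 0.09 with an RNA quality covariate. A higher basal CRT1b transcript level in the mutant was thus not excluded.

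**Figure D1:**
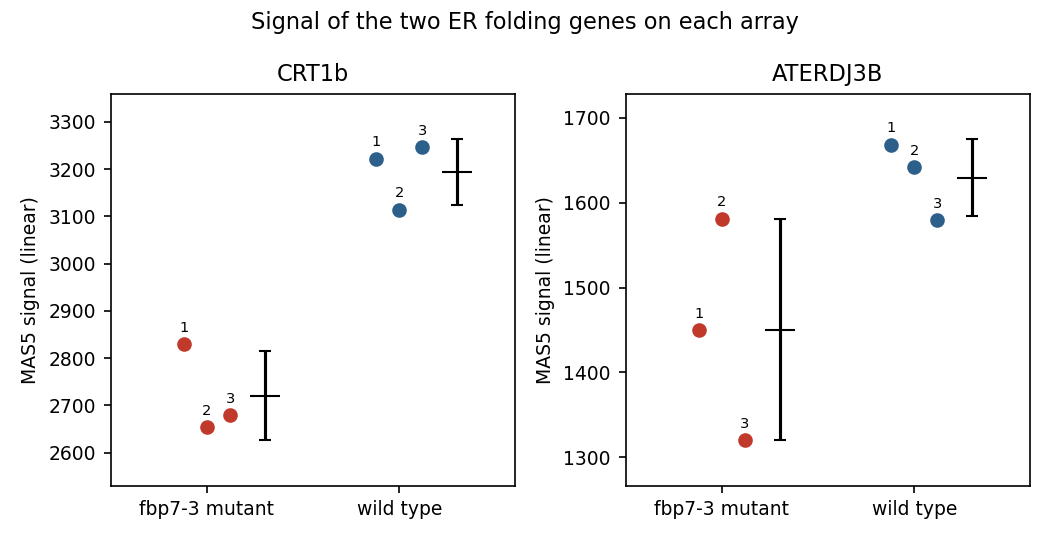
MAS5 signal (linear, vertical axis, which does not start at 0) of CRT1b (left) and ATERDJ3B (right) on each array, with fbp7-3 mutant samples in red and wild type samples in blue. Small numbers give the replicate, and the black mark and bar are the group mean and SD (n = 3); for CRT1b the groups are separate, and for ATERDJ3B mutant replicate 2 (1581.1) lies just above wild type replicate 3 (1579).

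ATERDJ3B, the J-domain co-chaperone gene, was lower in the mutant on average, but its groups overlapped. It too was read above background, at a percentile between 88.8 and 91.1 of each array's signals. Its signal was 1450, 1581.1 and 1320.2 in mutant samples 1 to 3, against 1668.1, 1641.5 and 1579 in wild type samples 1 to 3. The groups overlapped by a margin of 2.1 between mutant replicate 2 and wild type replicate 3, and mutant replicate 3 was the lowest of all samples. The mean was 1450.4 ± 130.5 in mutant seedlings and 1629.5 ± 45.7 in wild type seedlings (SD, n = 3 each), or 89.0% of the wild type level.

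The log2 change of ATERDJ3B was −0.17 ± 0.10 (SE; 95% interval −0.38 to 0.04), a ratio of 0.889 with an interval from 0.768 to 1.03. It did not pass (limma, adjusted p = 0.546; unadjusted p = 0.108), and the two-sided exact permutation p was 0.2. Of the probe sets tested, 42.0% had a larger absolute change. The mutant samples were more spread out, with a coefficient of variation of 8.99%, against 2.81% in the wild type samples. The difference was thus not beyond the replicate spread. The interval of this fit holds no rise above 1.03-fold and no fall below 0.768-fold.

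The 2 genes did not follow each other within the mutant group. CRT1b was highest in mutant replicate 1, whereas ATERDJ3B was highest in mutant replicate 2. Across the 6 arrays their log2 signals correlated at r = 0.6766, a description that includes the difference between the groups.

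Both members were set against the RNA quality index, since it separated the groups. Mutant replicate 3, with the highest index of 1.334, had the lowest ATERDJ3B signal of all arrays but not the lowest CRT1b signal. With the index as a covariate the log2 change of ATERDJ3B was −0.04 (interval −0.37 to 0.29; limma adjusted p = 0.992), and that of CRT1b was −0.22 (interval −0.53 to 0.09; adjusted p = 0.909). The part of RNA quality in either difference was not tested beyond this fit. Without mutant replicate 3 the change of ATERDJ3B was −0.10 (limma adjusted p = 0.846), against −0.23 (adjusted p = 0.506) without mutant replicate 2, so its size moved with single mutant arrays.

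**Figure D2:**
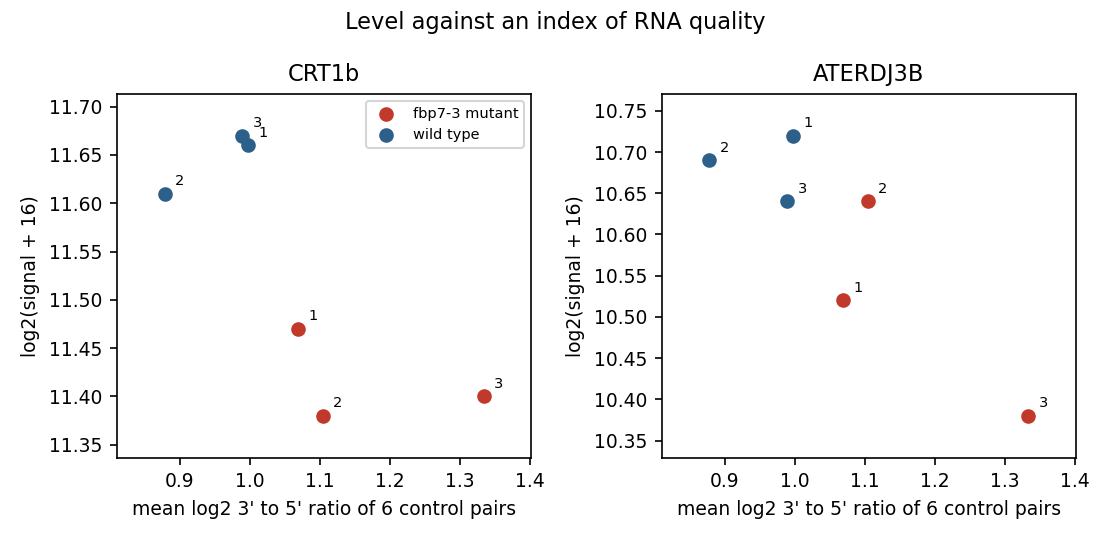
Level of CRT1b (left) and ATERDJ3B (right) as log2(signal + 16), against the 3′ to 5′ index of 6 control pairs (mean of log2 ratios) on the same array, with mutant arrays in red, wild type arrays in blue and replicate numbers beside the points. All mutant arrays lie to the right of the wild type arrays (1.069 to 1.334 against 0.878 to 0.998), and the ATERDJ3B level is lowest on the array with the highest index.

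The other genes of ER folding and quality control were taken from 9 lists by locus, with 81 loci in all. Of these loci 24 had a probe set of their own in the annotation table used, and 2 more shared probe sets with each other and were left out. The 24 loci had 26 probe sets, of which 24 were bright enough to be tested, for 23 genes including CRT1b and ATERDJ3B. The list of other ER stress survival genes had no probe set. BiP, calnexin 1, CRT1a, CRT3 and most disulfide isomerases were among the loci with no probe set of their own in the table and were not analysed here, so the strongest known reporters of the unfolded protein response are missing from this reading.

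None of the 24 probe sets passed over all probe sets (0 higher and 0 lower, smallest limma adjusted p = 0.215), against 1.06% of all tested in either direction and 0.533% lower in the mutant. At an unadjusted p under 0.05, 1 was higher and 2 were lower in the mutant, against 11.8% of all tested in either direction and 6.24% lower. Groups did not overlap in 4 of 24, or 16.7%, near the 17.0% of all probe sets. The median log2 change was −0.03 over the 24, with 9 above 0 and 15 below, and −0.02 over the 22 without CRT1b and ATERDJ3B, against a median of 0.0 to 2 decimals over all tested probe sets. In this fit no ER change exceeded 0.3 in absolute log2, and for 23 of 24 the 95% interval lay wholly within a 1.5-fold change either way. With the RNA quality index as a covariate the interval did so for 15 of 24, and the largest ER change was 0.56, on a probe set of AT3G48570 (252324_at). The median level of the ER probe sets, centred on each probe set's mean, was −0.023, −0.006 and −0.037 on mutant arrays 1 to 3 and −0.059, 0.046 and 0.073 on wild type arrays 1 to 3, and the groups overlapped.

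**Figure D3:**
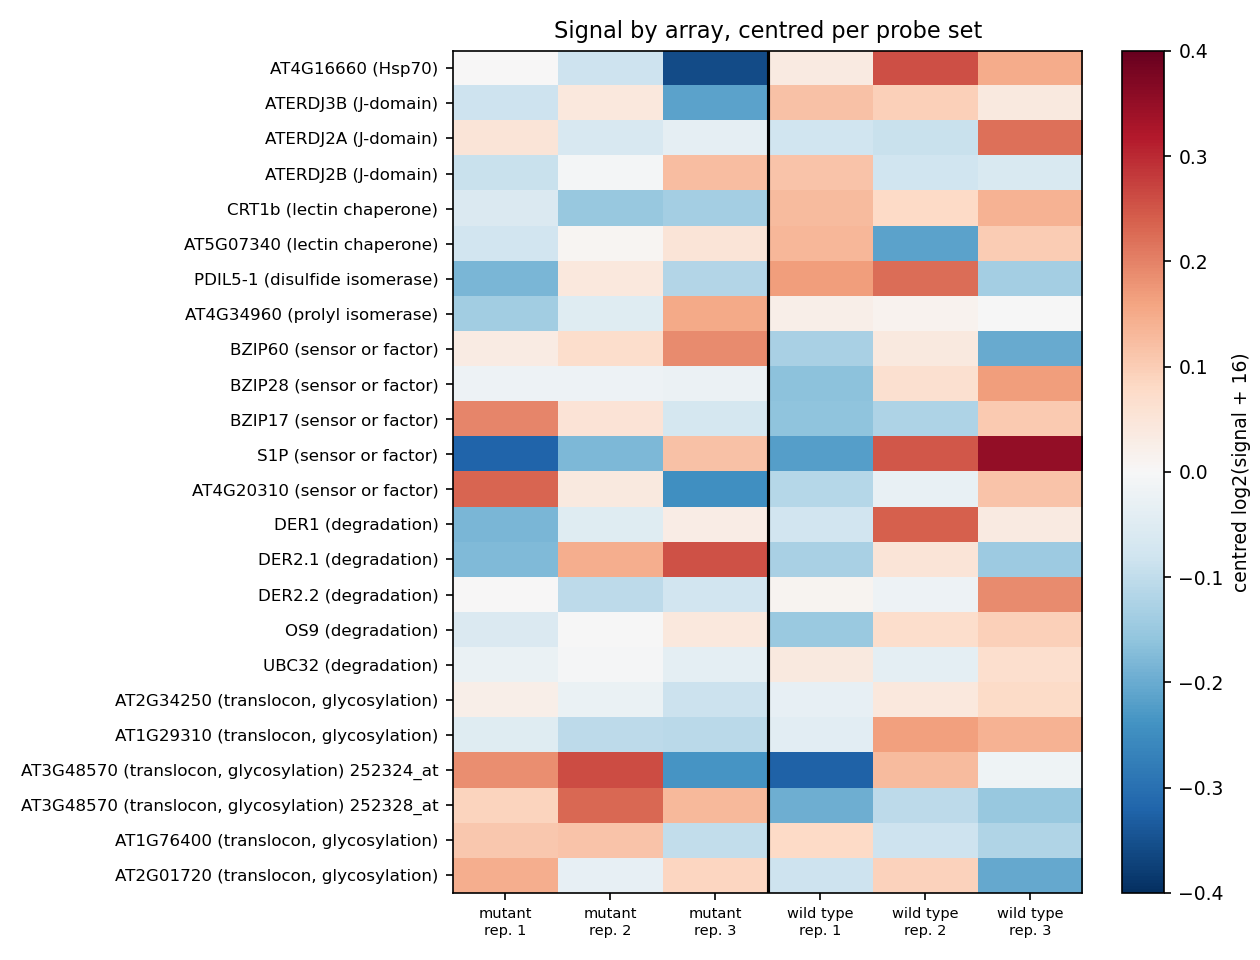
Signal of the 24 tested ER folding and quality control probe sets (rows, with the role of each gene in brackets) on the 6 arrays (columns, mutant left of the line and wild type right), as log2(signal + 16) minus the probe set's mean over the arrays. Red is above and blue below that mean, from −0.36 to 0.35; CRT1b is blue on all mutant arrays and red on all wild type arrays, and most rows show no such split.

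In the list of ER Hsp70 and Hsp90 chaperones and nucleotide exchange, 1 of 5 loci was measured. AT4G16660, an Hsp70-family protein of the ER, had signals of 529.9, 499.1 and 409.6 in the mutant, against 543.5, 637 and 589.1 in the wild type. All mutant samples lay below all wild type samples. The log2 change was −0.30 ± 0.13 (interval −0.57 to −0.02) and did not pass (limma adjusted p = 0.384). With the RNA quality index as a covariate the change of AT4G16660 was −0.01 (interval −0.40 to 0.38; adjusted p = 0.997), and without mutant replicate 3, the array of highest index, it was −0.19.

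The other measured J-domain genes encode the ERdj2 proteins, which belong to the Sec63 class at the translocon. ATERDJ2A had a mean signal of 934.1 ± 40.4 in mutant seedlings and 959.7 ± 123 in wild type seedlings (SD, n = 3 each), a log2 change of −0.03 ± 0.11. ATERDJ2B had 315.5 ± 24.8 in mutant seedlings and 311.7 ± 25 in wild type seedlings, a change of 0.02 ± 0.14. Both changes lay near 0, and neither passed (limma adjusted p = 0.951 and 0.982).

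Of the lectin cycle in which calreticulin works, 1 further gene of 9 listed loci was measured, AT5G07340, which encodes a calnexin. Its signals were 613.9, 651.8 and 672.4 in the mutant, against 713.4, 557.3 and 696.5 in the wild type. The groups overlapped fully, and the log2 change was −0.01 ± 0.12 (interval −0.27 to 0.25; limma adjusted p = 0.983). The difference between its change and that of CRT1b was not tested.

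Folding enzymes were thinly covered. PDIL5-1, a disulfide isomerase-like gene, averaged 599.4 ± 49.8 in mutant seedlings and 679.2 ± 89.7 in wild type seedlings, a log2 change of −0.17 ± 0.13 (limma adjusted p = 0.656). AT4G34960, a cyclophilin-type prolyl isomerase gene, averaged 419.8 ± 45.8 in mutant seedlings and 425.6 ± 4.1 in wild type seedlings, a change of −0.02 ± 0.13. Neither difference was beyond the spread between samples.

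The upstream factors of the response were measured better, at 5 of 11 listed loci, and none passed. IRE1 was not among the measured loci. BZIP28 was measured, with a log2 change of −0.04 ± 0.12 (interval −0.30 to 0.21, limma adjusted p = 0.931). BZIP60 had signals of 564.6, 579.8 and 630.9 in the mutant, against 503.5, 567.8 and 477.7 in the wild type. Mutant replicate 1 alone lay below the highest wild type sample, and the log2 change was 0.19 ± 0.12 (interval −0.06 to 0.45; limma adjusted p = 0.568). The probe set reads the BZIP60 transcript as a whole here, and spliced and unspliced forms were not told apart.

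S1P, the protease that cuts bZIP28, averaged 361.6 ± 59.9 in mutant seedlings and 437.4 ± 90.1 in wild type seedlings, a log2 change of −0.26 ± 0.17 (interval −0.61 to 0.10). The S1P value moved with single arrays, at −0.43 (interval −0.77 to −0.09; limma adjusted p = 0.35) without wild type replicate 1, −0.16 without mutant replicate 1 and −0.14 without wild type replicate 3, and it was −0.45 (interval −1.01 to 0.10) with the RNA quality covariate. BZIP17, a related membrane-bound factor, averaged 210.6 ± 20.7 in mutant seedlings and 192.7 ± 21.4 in wild type seedlings, a change of 0.12 ± 0.17. Over the 5 probe sets the median change was 0.02, with 3 above 0 and 2 below.

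ER-associated degradation, which exports misfolded proteins to the proteasome, was read by 5 tested probe sets with a median change of −0.05, none of which passed. DER2.1, a derlin gene, averaged 1185.4 ± 179.6 in mutant seedlings and 1061 ± 82.5 in wild type seedlings, a log2 change of 0.15 ± 0.12. DER1 (253712_at) had a log2 change of −0.13 ± 0.13 and DER2.2 one of −0.12 ± 0.12. The second DER1 probe set, 253711_at, had signals from 0.8 to 31.9 and was too dim to test.

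Translocon and N-glycosylation genes held the largest positive value of the ER lists. AT3G48570, a gene for the small gamma subunit of the SEC61 translocon, had signals of 1078.8, 1191.9 and 1111.9 in the mutant on probe set 252328_at, against 884.3, 941.7 and 911.6 in the wild type. All mutant samples were higher, with a log2 change of 0.30 ± 0.10 (interval 0.09 to 0.51) that did not pass (limma adjusted p = 0.215). Its other probe set, 252324_at, had a log2 change of 0.14 ± 0.16 with overlapping groups. That of 252324_at was 0.56 (interval 0.10 to 1.02; limma adjusted p = 0.723) with the RNA quality covariate, 0.29 without mutant replicate 3 and 0.02 without wild type replicate 1. With the covariate 252328_at was at 0.33.

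AT1G29310, a SEC61 alpha subunit gene, differed in the other direction, at 650.4, 625 and 623.3 in the mutant against 652.5, 756.9 and 742.7 in the wild type. These groups did not overlap, by a margin that is small beside the spread, and the log2 change was −0.17 ± 0.11 (limma adjusted p = 0.588). AT2G01720, a ribophorin gene of the oligosaccharyltransferase, had a log2 change of 0.13 ± 0.10. AT1G11560 was too dim to test. Over the 6 tested probe sets the median change was 0.11, with 4 above 0 and 2 below.

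Cytosolic chaperones served as a comparison from another compartment. Hsp70-2 averaged 511.8 ± 9.0 in mutant seedlings and 531.3 ± 50.4 in wild type seedlings, a log2 change of −0.05 ± 0.12. AT3G09440, also a cytosolic Hsp70 gene, averaged 3060.6 ± 264.1 in mutant seedlings and 3128.5 ± 93.1 in wild type seedlings, a change of −0.03 ± 0.09. Neither passed, and these 2 were the measured members of 12 listed loci. The groups overlapped for both genes.

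**Figure D4:**
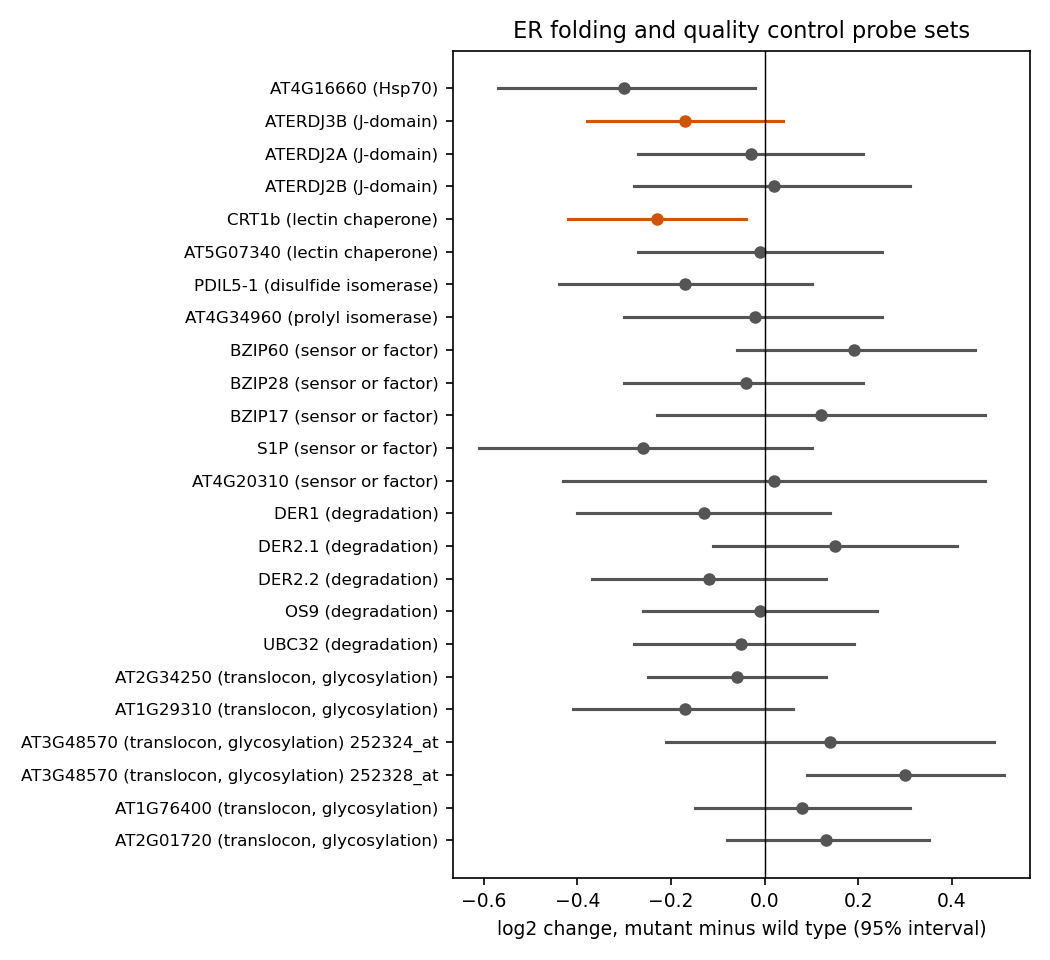
Log2 change, mutant minus wild type, of the 24 tested ER probe sets (points) with 95% intervals from limma (lines), grouped by role from top to bottom, with CRT1b and ATERDJ3B in orange. The interval excludes 0 for CRT1b (−0.42 to −0.04) and AT4G16660 (−0.57 to −0.02) below and for AT3G48570 on 252328_at (0.09 to 0.51) above, before adjustment for the number of probe sets.

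Tissue markers were read beside these values. Of 5 root and root hair probe sets, 4 were lower in the mutant, against 8553 of all 17059 tested, and none of the 5 passed. Their median log2 change was −0.41. Groups did not overlap for AT3G49960 (−0.75) and for AT4G11290, which was higher (0.17), against 17.0% of all tested in either direction. The summed signal, of which AT4G11290 was the largest part, was 956.1 to 1128.1 in the mutant, against 976.4 to 1386.5 in the wild type. Of 8 loci in the seed storage and embryo list only 2 were measured, ICL and M17, and both were lower in the mutant. Their summed signal was 160.8 to 273.7 in the mutant, against 289.7 to 1641.2 in the wild type, where M17 was the larger part on every array. M17 passed (limma adjusted p = 0.0372). LHCB4.1, 1 gene chosen after its values were seen, had signals of 21527.9 to 26345.4 in the mutant, all above the 18999.8 to 20962.6 of the wild type. Such a separation, with the mutant higher, was found in 1441 of the 17059 probe sets tested. No marker probe set of either list was at or below a signal of 1 on any array. On wild type replicate 2, which had the highest sum of ICL and M17, CRT1b was at 3113.6, against 3221.7 and 3246.1 on wild type replicates 1 and 3. ATERDJ3B was at 1641.5 on that array, between the 1668.1 and 1579 of wild type replicates 1 and 3. The part of tissue make-up in the CRT1b and ATERDJ3B values was not tested.

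The genes most like each member across the 6 arrays were named by the Pearson correlation of log2 signals among 9443 tested probe sets with exactly 1 gene. For CRT1b they were AT1G77260 (r = 0.9977), AT5G08010 (0.9926) and LCR68, a defensin-like gene (0.9889). For ATERDJ3B they were AT5G14500 (r = 0.9978), AT3G47560 (0.9904) and APS3, an ATP sulfurylase gene (0.9829). With 6 arrays, 163 probe sets correlated above 0.9 with CRT1b and 111 with ATERDJ3B. Such a correlation includes the difference between the groups, so choosing by it favours genes that differ in the members' direction. All 6 named genes had negative changes, from −0.52 (AT5G14500) to −0.18 (AT1G77260), and none of them passed (smallest limma adjusted p = 0.0648, LCR68). No listed ER gene was among them. With 3 named per member out of 9443, and 22 other ER probe sets tested, this does not show whether ER genes followed the members.

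**Figure D5:**
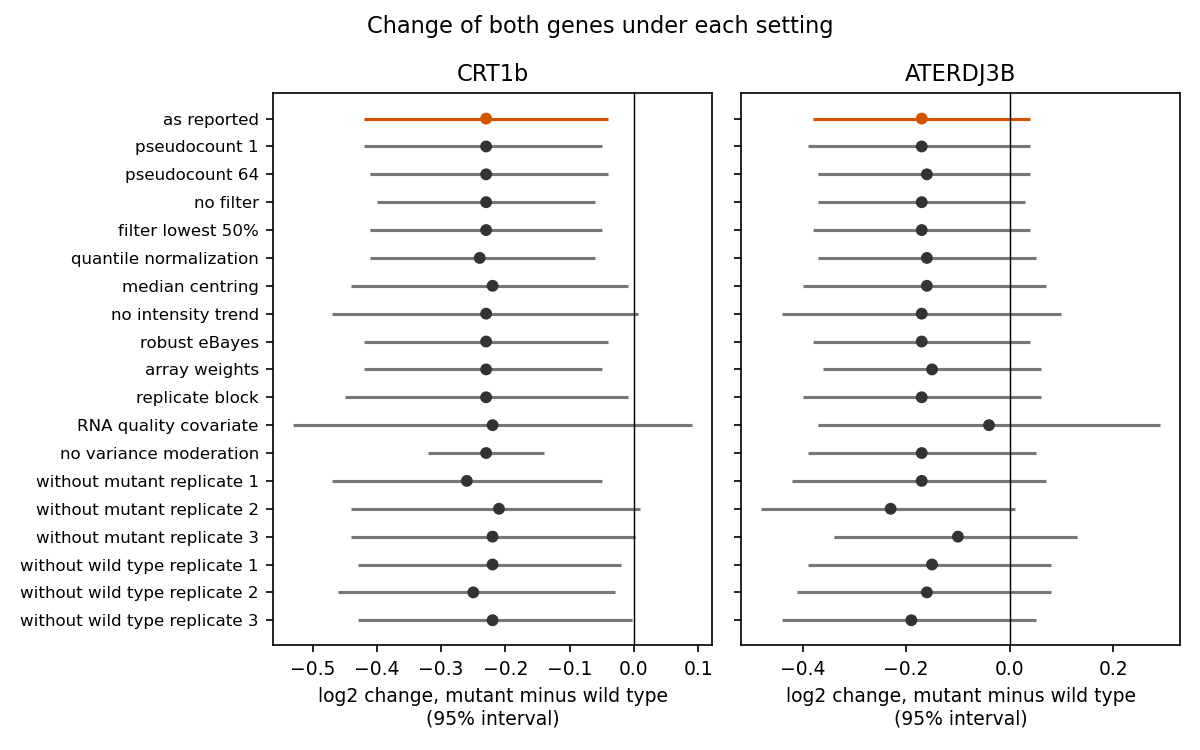
Log2 change, mutant minus wild type, of CRT1b (left) and ATERDJ3B (right) with 95% intervals as reported (orange, top) and under each other setting of the analysis (grey). CRT1b stays between −0.26 and −0.21 in all of them, and ATERDJ3B between −0.23 and −0.04, with the value nearest 0 in the fit with the RNA quality covariate.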

How the data were processed

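Per the submitters' processing notes, the authors deposited MAS5 signal intensity values, 1 column per array; no source used here gives the MAS5 version or its settings. The labels' protocols describe about 80 mg of tissue per sample and about 6 µg of labelled RNA. After the lowest and highest 2% of values were left out, the mean was the same on all 6 arrays, so each had been scaled by 1 factor. Signals ran from 0.1 to 46363.1, and no detection calls were used. No arrays held identical values.

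Probe sets were named from the platform's annotation table, with symbols from RefSeq (TAIR10.1); no sequences or coordinates were used here. From the deposited intensities log2(signal + 16) was taken, probe sets in the lowest 25% by mean over all arrays were left out, and mutant and wild type were fitted in limma 3.58.1 (R 4.3.3; lmFit, then eBayes with an intensity trend), with Benjamini-Hochberg adjustment over all 17059 tested and a threshold of 0.05. Each variance combined 4 residual with 10.4 prior degrees of freedom. Single values had exact permutation tests (scipy 1.17.1). The number of arrays limits the precision.

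Named genes were both members, the 3 of smallest p in each list (both where 2 were measured), and the 3 most correlated with each member; other names were chosen after their values were seen. The members and lists were chosen with earlier results of these data known, and the lists come from general knowledge. The fit was checked on simulated data with independent noise and no difference in RNA quality between groups. That check therefore does not cover the RNA quality difference seen here, and its recovery of small changes is not given. Alternatives were pseudocounts of 1 and 64, other filters, normalizations and variance models, array weights, a replicate block, an RNA quality covariate and leaving out each array.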

Additional observations from a re-analysis of the deposited data

Results flagged for a closer look

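Of 6 control ratios of 3′ to 5′ signal, 3 stood higher on every mutant array than on every wild type array. The GAPDH ratio was 3.13 ± 0.31 in mutant samples and 2.5 ± 0.07 in wild type samples (SD, n = 3 each) in the first series of controls, and 1.36 ± 0.12 against 1.14 ± 0.11 in the second. The ubiquitin ratio of the first series was 3.79 ± 0.29 in mutant samples, against 3.4 ± 0.12 in wild type samples. These controls measure other transcripts. The covariate fit given above cannot reliably tell RNA quality from the mutation in the CRT1b and ATERDJ3B values, and nothing further was tested.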

How the results depend on the processing

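Over 18 alternatives the change of CRT1b stayed below 0, from −0.26 to −0.21, and never passed over all probe sets (adjusted p from 0.234 to 0.909), with the interval below 0 in 14 of them. That of ATERDJ3B also stayed below 0, from −0.23 to −0.04 (adjusted p from 0.491 to 0.992), with the interval below 0 in none of the 18. The number of changed probe sets in the whole table was 75 with no filter, 6 without the intensity trend, 24 with the RNA quality covariate and 5 without variance moderation, the last chosen after seeing the data, against 180 as reported. It ran from 74 (without mutant replicate 3) to 248 (without mutant replicate 1) when each array was left out, and was 81, 89 and 115 without wild type replicate 1, mutant replicate 2 and wild type replicate 2. No ER probe set passed under any of them, and the median ER change stayed between −0.06 and 0.01. Of 324 values for the 18 other probe sets named from the ER and cytosolic lists, 15 changed sign and none passed the threshold. BZIP28, the tissue markers and the genes most like each member were not among these 18. The largest ER change ran up to 0.56 with the RNA quality covariate and −0.43 without wild type replicate 1, and ER intervals lay within a 1.5-fold change for 15 of 24 with the covariate and 21 to 24 of 24 (22 of 23 with the stricter filter) otherwise. Leaving out 1 array also moved DER2.1 (0.06 to 0.27), PDIL5-1 (−0.28 to −0.10), BZIP17 (0.05 to 0.20), DER1 (−0.20 to −0.05), DER2.2 (−0.16 to −0.05), Hsp70-2 (−0.13 to −0.0039) and AT2G01720 (0.06 to 0.21). When each array was left out, ATERDJ2A ran from −0.09 to 0.07 (without wild type replicate 3). ATERDJ2B was at −0.15 with the RNA quality covariate, and −0.04, −0.02 and −0.0093 without mutant replicate 3, wild type replicate 2 and wild type replicate 3. AT5G07340 was at 0.02 after quantile normalization, 0.0065 with array weights, and 0.02, 0.05 and 0.03 without mutant replicate 1, wild type replicate 1 and wild type replicate 3, with a lowest value of −0.12 when an array was left out. AT4G34960 was at 0.00059 after quantile normalization and 0.04 without mutant replicate 1 (lowest −0.11). DER2.1, at 0.15 as reported, was at −0.0021 with the covariate, and AT3G09440 at 0.08 with it and 0.03 without mutant replicate 3 (lowest −0.09). The cause was not tested. With the replicate number as a replicate block 211 probe sets passed, and CRT1b was at −0.23 (adjusted p = 0.401) and ATERDJ3B at −0.17 (0.618). Same-numbered arrays did not deviate together (r = −0.005, −0.025 and −0.032 for replicates 1 to 3). This does not show whether same-numbered arrays shared a growth or processing batch.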
